A study of Drosophila melanogaster with 2 samples.

Results

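Small nucleolar RNA (snoRNA) genes and the genes that carry them were examined for binding of CG6813, a zinc finger protein, in Drosophila melanogaster embryos. The members are the 257 genes of the BDGP6.54 annotation whose symbol starts with snoRNA:, out of 18277 genes. A host was defined as the same-strand gene with the smallest span that holds the whole snoRNA gene. By this rule 236 snoRNA genes lay in 82 hosts and 21 had no host. The hosts were 28 ribosomal protein (RP) genes with 71 snoRNA genes, 7 U snoRNA host genes (Uhg) with 48, and 47 other genes with 117. Of the hosts, 72 were protein-coding and 10 were noncoding, and 22 of the 236 hosted snoRNA genes overlapped an exon of the host.

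Chromatin immunoprecipitation and sequencing (ChIP-seq) had been carried out on whole embryos of both sexes, 0 to 24 h old, of 1 transgenic line that stably expresses CG6813 with green fluorescent protein (GFP) at its C-terminus. The fusion protein was pulled down with an anti-GFP antibody from chromatin sonicated to 200 to 800 bp. There was 1 group with 2 biological replicates, numbered 2 and 3, and replicate 1 and any control library were not analysed here. Whole organisms were used, so no cell type can be assigned to a binding site, and the tagged protein is expressed from a transgene. The authors' thresholded list held 5012 peaks, all of them rows of a list of 30000 regions called on the replicates pooled. Each region carries a signal value given by the authors, whose scale is not stated, and the lowest signal in the thresholded list was 145.7. The values are used below only to describe and rank peaks within a list. The lists give no read counts, so the sequencing depth behind each value is unknown. A gene is called bound below when the summit of a thresholded peak, the position of highest signal, lay within 500 bp of one of its annotated transcription start sites (TSSs). With 1 group there is no comparison between conditions and no test was made. Intervals are exact 95% binomial (Clopper-Pearson) intervals and cover counting error only.

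snoRNAs guide the chemical modification of ribosomal RNA. Box C/D snoRNAs direct 2′-O-methylation through fibrillarin, and box H/ACA snoRNAs direct pseudouridylation through a dyskerin family enzyme. In flies most are processed out of introns of a host transcript, so that the promoter of the host drives the snoRNA as well. Many hosts encode proteins of the translation machinery, while Uhg transcripts are noncoding and their exons have no known protein product. RP genes of flies often start transcription in a pyrimidine-rich initiator (the TCT element) in place of the common initiator.

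By their symbols, 115 snoRNA genes were of the H/ACA class (Psi or aca in the name), 94 of the C/D class (Me or CD), and 48 could not be classed. One of each class is shown to make the difference visible, and both lie in an RP host whose promoter was bound. The sequences are from RefSeq (Release 6 plus ISO1 MT, dm6). Capitals mark the ACA trinucleotide near the 3′ end of the H/ACA member, and the C box (TGATGA) and D box (CTGA) of the C/D member.
snoRNA:Psi18S-920 (chr3L:11822984-11823124, plus strand): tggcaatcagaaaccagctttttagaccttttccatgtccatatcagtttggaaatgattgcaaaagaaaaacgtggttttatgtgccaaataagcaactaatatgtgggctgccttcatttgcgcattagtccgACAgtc
snoRNA:Me28S-A774b (chr3L:13023580-13023652, plus strand): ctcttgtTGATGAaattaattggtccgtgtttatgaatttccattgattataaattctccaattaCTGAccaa

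An ACA that begins 5 to 7 bases before the 3′ end was present in 107 of the 115 H/ACA genes and in 5 of the 94 C/D genes. A C box in the first 25 bases together with a D box in the last 20 was present in 63 of the 94 C/D genes and in 0 of the 115 H/ACA genes. The classes taken from the names therefore had different sequence elements. The genes were short, between 46 and 511 bp with a median of 134 bp.

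The promoter windows of host genes are shown next, since the results turn on whether a summit lies in them. The first 4 belong to RP hosts with high signal, the next to Uhg8, which was bound, and the last 2 to Uhg2 and Uhg3, which were not. Each window runs from 100 bases upstream of a TSS to 10 bases from it, 5′ to 3′ on the gene's strand, and is taken from the same RefSeq sequence. Capitals mark TCTTT, the letters searched for as a pyrimidine-rich initiator, where it lay on the sense strand within 10 bases of the TSS.
RpL14 (chr3L:8600906-8601015, plus strand): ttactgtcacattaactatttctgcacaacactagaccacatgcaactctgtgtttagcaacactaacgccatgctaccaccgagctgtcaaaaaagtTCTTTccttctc
RpL22 (chrX:765121-765230, minus strand): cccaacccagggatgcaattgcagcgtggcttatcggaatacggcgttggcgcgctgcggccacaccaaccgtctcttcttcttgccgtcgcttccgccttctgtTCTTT
RpL28 (chr3L:3222951-3223060, minus strand): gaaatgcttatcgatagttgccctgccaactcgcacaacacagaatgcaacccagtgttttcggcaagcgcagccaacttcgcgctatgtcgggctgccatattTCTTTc
RpS4 (chr3L:13041701-13041810, plus strand): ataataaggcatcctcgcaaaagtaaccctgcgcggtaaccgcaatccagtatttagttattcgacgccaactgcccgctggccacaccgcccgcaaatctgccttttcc
Uhg8 (chr3L:20453193-20453302, plus strand): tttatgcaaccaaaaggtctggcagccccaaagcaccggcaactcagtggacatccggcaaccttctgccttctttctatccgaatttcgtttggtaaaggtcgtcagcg
Uhg2 (chr2L:9894994-9895103, minus strand): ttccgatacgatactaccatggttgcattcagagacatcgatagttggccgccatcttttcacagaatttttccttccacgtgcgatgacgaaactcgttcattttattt
Uhg3 (chr2L:20647433-20647542, plus strand): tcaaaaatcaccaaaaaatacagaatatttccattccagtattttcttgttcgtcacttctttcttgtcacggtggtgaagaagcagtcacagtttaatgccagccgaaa

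RpL14, RpL22 and RpL28 have TCTTT at the TSS, whereas the RpS4 window and the 3 Uhg windows do not hold it within 10 bases of the TSS. A match is a description of the letters and not evidence of a functional site.

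RP hosts were bound in most cases. A thresholded summit lay within 500 bp of a TSS at 24 of the 28 RP hosts (85.7%, 95% interval 67.3 to 96.0%), against 12.9% of all annotated genes and 14.8% of all protein-coding genes. The other 4, RpL5, RpL15 and RpS9 among them, had a region in the pooled list but none in the thresholded list, so that all 28 RP hosts had a pooled region, against 38.3% of all genes. The count was 24 of 28 also with windows of 200 and of 1000 bp. Genes with more annotated TSSs have more chances of a nearby summit, and among protein-coding genes with 2 or more TSSs the share was 28.5%, against 9.82% of those with 1. RP genes that are not hosts by the rule were bound in 44 of 65 cases (67.7%, 54.9 to 78.8%), an interval that overlaps that of the RP hosts. The difference between them was not tested. The 65 were chosen by symbol and include genes such as RpL7-like and RpL22-like, which were not bound. Without symbols that hold a hyphen, 43 of 58 were bound (74.1%, 61.0 to 84.7%). The 65 also include RpL23A, which holds Uhg7 and its snoRNA genes within a wider span.

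Signal at the bound RP hosts was high within the thresholded list. The median over the 24 was 557 (lowest 225, highest 1074), against a median of 502 over the 44 bound RP genes that are not hosts, 255 over all 2063 bound protein-coding genes and 226 over all thresholded peaks. The strongest was at RpL14, a protein of the large ribosomal subunit with 2 snoRNA genes, with a pooled signal of 1074, replicate 2 at 687 and replicate 3 at 372. RpS4, of the small subunit with 3 snoRNA genes, had 936, with 637 in replicate 2 and 297 in replicate 3. RpL11 had 891, with 529 in replicate 2 and 335 in replicate 3. These promoters stood among the 200 strongest regions of the pooled list (ranks 110, 158 and 178).

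Large-subunit genes also filled the next places. RpL30 had a signal of 883, with replicate 2 at 505 and replicate 3 at 394. RpL22 had 787, with 543 and 254, and RpL13A had 786, with 498 and 290, in replicates 2 and 3. RpL28, a host of 5 snoRNA genes, had 713, with 437 in replicate 2 and 273 in replicate 3. In each of these hosts replicate 2 carried the larger value. This was so at most but not all thresholded peaks, where the ratio of replicate 2 to replicate 3 had a median of 2.19 (lower quartile 1.72, lowest 0.25).

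The 24 bound RP hosts are divided below at the widest gap, as a ratio, in their own signals. The division was thus chosen from these same values and does not show separate groups. In 18 of them the signal was between 409 and 1074. Besides those named, these were RpL4, RpL17, RpS16, RpL3, RpS3A, RpS5a, RpS12, sta (which encodes the ribosomal protein SA), RpL27A, RpS29 and RpS7. The other 6, which included RpS20, RpL36A, RpL7A, RpS6 and RpL10Ab, had signals between 225 and 234, and no RP host lay between 234 and 409. RP genes that are not hosts did lie in that gap, such as RpS23 (332), RpL23 (310) and RpL36 (277). Among the RP hosts below the list minimum, the pooled signal was 129 at RpL5, 126 at RpL15 and 59.1 at RpS9. RpS9 had no region within 200 bp in replicate 3.

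**Figure D1:**
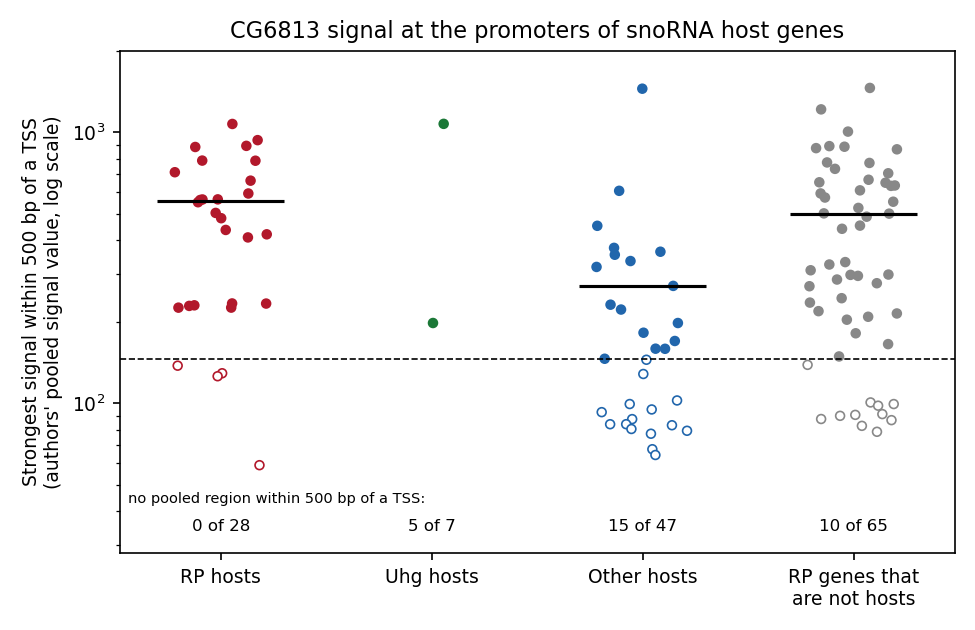
Strongest pooled signal within 500 bp of a TSS, on a log scale, for RP hosts, Uhg hosts, other hosts and RP genes that are not hosts, with 1 point per gene. Filled points are in the thresholded list, open points only in the pooled list, the dashed line is the lowest signal of the thresholded list (145.7), black bars are medians of filled points, and the counts at the bottom give genes with no pooled region. All 28 RP hosts have a point, while 5 of 7 Uhg hosts have none.

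Both replicates held the RP host peaks among their strongest regions. Of the 24 summits, all 24 matched, within 200 bp, a region among the 5012 strongest of replicate 2 and one among the 5012 strongest of replicate 3. Their ratio of replicate 2 to replicate 3 ran from 1.28 to 3.18 with a median of 1.86. Among the 17 bound other hosts, 13 were among the 5012 strongest of both replicates. The 4 that were not, Dek, Hrb98DE, Rbfox1 and dom, met the limit in replicate 3, while dom had no replicate 2 region within 200 bp. The thresholded peaks are themselves rows of the list called on these replicates pooled, and 4927 of all 5012 had a region in both replicates. Agreement between replicates is therefore partly built in. The share of all thresholded peaks that met the rank limit in both was not counted.

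**Figure D2:**
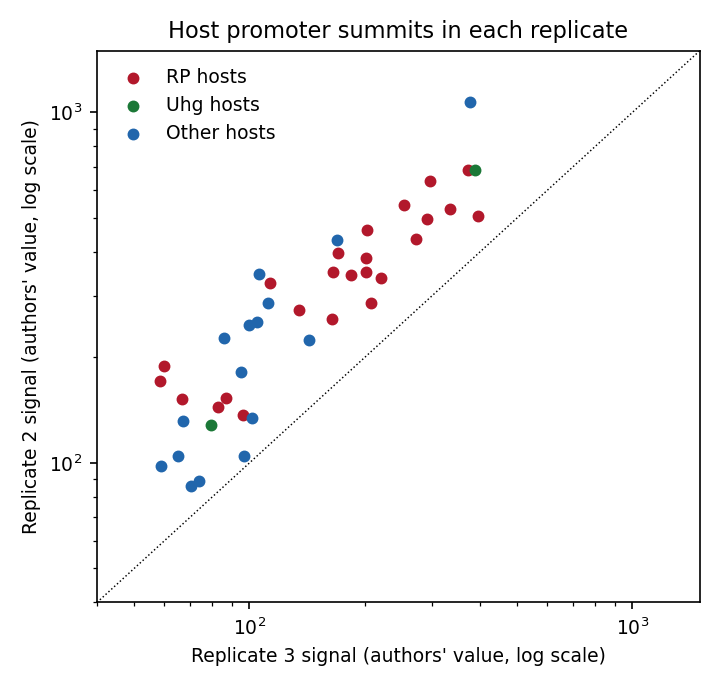
Signal of replicate 2 against that of replicate 3, both on a log scale, at the strongest promoter summit of each bound host with a region in both replicates (24 RP, 2 Uhg and 16 other hosts). The dotted line marks equal values, and all points lie above it.

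Summits at RP hosts lay close to the TSS. In 23 of the 24 bound RP hosts (95.8%, 78.9 to 99.9%) the strongest summit was within 50 bp of a TSS, against 35 of 44 bound RP genes that are not hosts (79.5%) and 329 of all 2063 bound protein-coding genes (15.9%). The median distance was 23 bp at RP hosts, 198 bp at other hosts and 155 bp over all bound protein-coding genes. Of the summits of the RP hosts, 18 of 24 were upstream of the TSS. Upstream positions were also usual over all bound protein-coding genes, with a median of −133 bp and an upper quartile of −32 bp. The exception in distance was RpS20, whose summit lay 190 bp upstream and was nearer to a TSS of CG17271, at 143 bp. The RpS6 summit, 21 bp from its TSS, was nearer to a TSS of the pseudogene CR33222, at 8 bp, and RpS6 and CR33222 cannot be told apart as its source.

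**Figure D3:**
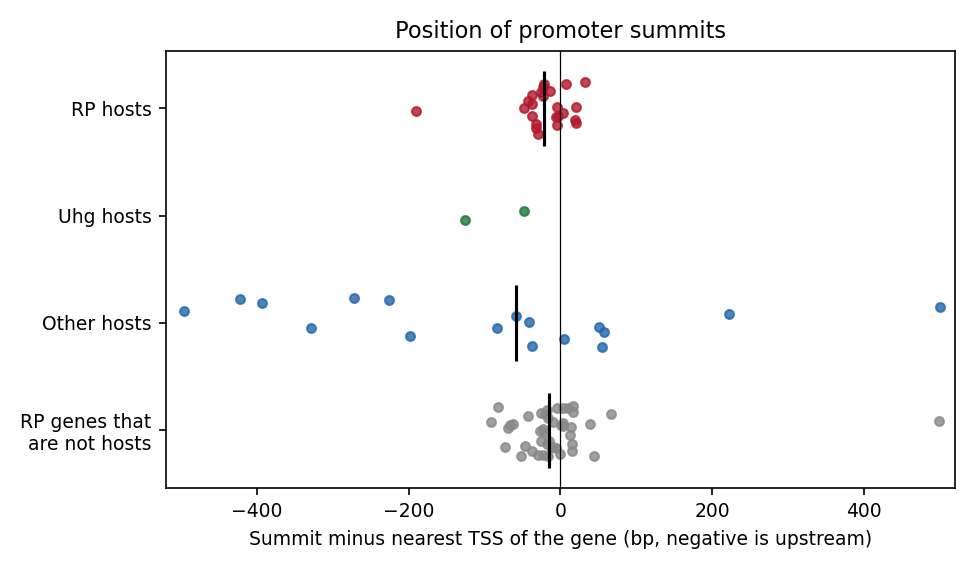
Distance of the strongest thresholded summit from the nearest TSS of the gene, in bp with negative values upstream, for bound RP hosts (24), Uhg hosts (2), other hosts (17) and RP genes that are not hosts (44). Vertical bars are medians, drawn for groups of more than 4 genes. RP summits cluster at the TSS with 1 RP host at −190 bp, while those of other hosts spread from −497 to 500 bp.

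RP hosts with 1 and with several snoRNA genes were bound in similar shares. Of RP hosts with 1 snoRNA gene 11 of 13 were bound, and of those with 2 or more 13 of 15. RpS5a, which carried the most at 14, had a signal of 552 with the summit 37 bp upstream of its TSS (chrX:17143588-17148264, minus strand). RpS7, which carried 7, had 409, with the summit 7 bp from its TSS. The unbound RP hosts carried 1 or 2 each.

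Uhg hosts were bound in 2 of 7 cases (28.6%, 3.67 to 71.0%), against 6.91% of noncoding genes other than snoRNA genes. Uhg4, with 7 snoRNA genes, had a pooled signal of 1075, with 686 in replicate 2 and 387 in replicate 3. This was the highest pooled value of any Uhg or RP host, but level with RpL14 at 1074. In single replicates an RP host was higher, RpL14 in replicate 2 (687) and RpL30 in replicate 3 (394). The Uhg4 summit lay 48 bp upstream of the TSS and ranked 109 in the pooled list. Uhg8, with 3 snoRNA genes, had 198, with 129 in replicate 2 and 79.2 in replicate 3, and its summit lay 126 bp upstream. The bound Uhg hosts thus differed by more in signal than any 2 bound RP hosts.

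The remaining 5 Uhg hosts had no pooled region within 500 bp of the TSS. They included those with the most snoRNA genes, Uhg1 with 16 and Uhg5 with 11, besides Uhg2 with 4, Uhg7 with 4 and Uhg3 with 3. The nearest thresholded summit was 20340 bp from the TSS of Uhg1, 20315 bp from Uhg2 and 43772 bp from Uhg5. It was 1795 bp from Uhg3 and 1414 bp from Uhg7. Uhg7 lies within the RP gene RpL23A on the same strand, and that nearest summit was the promoter summit of RpL23A, 67 bp upstream of its TSS, with a signal of 885. The replicate 3 list held regions near Uhg2 (73.9, at −26 bp) and Uhg5 (33.2, at 50 bp), and replicate 2 held none within 500 bp of either.

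**Figure D4:**
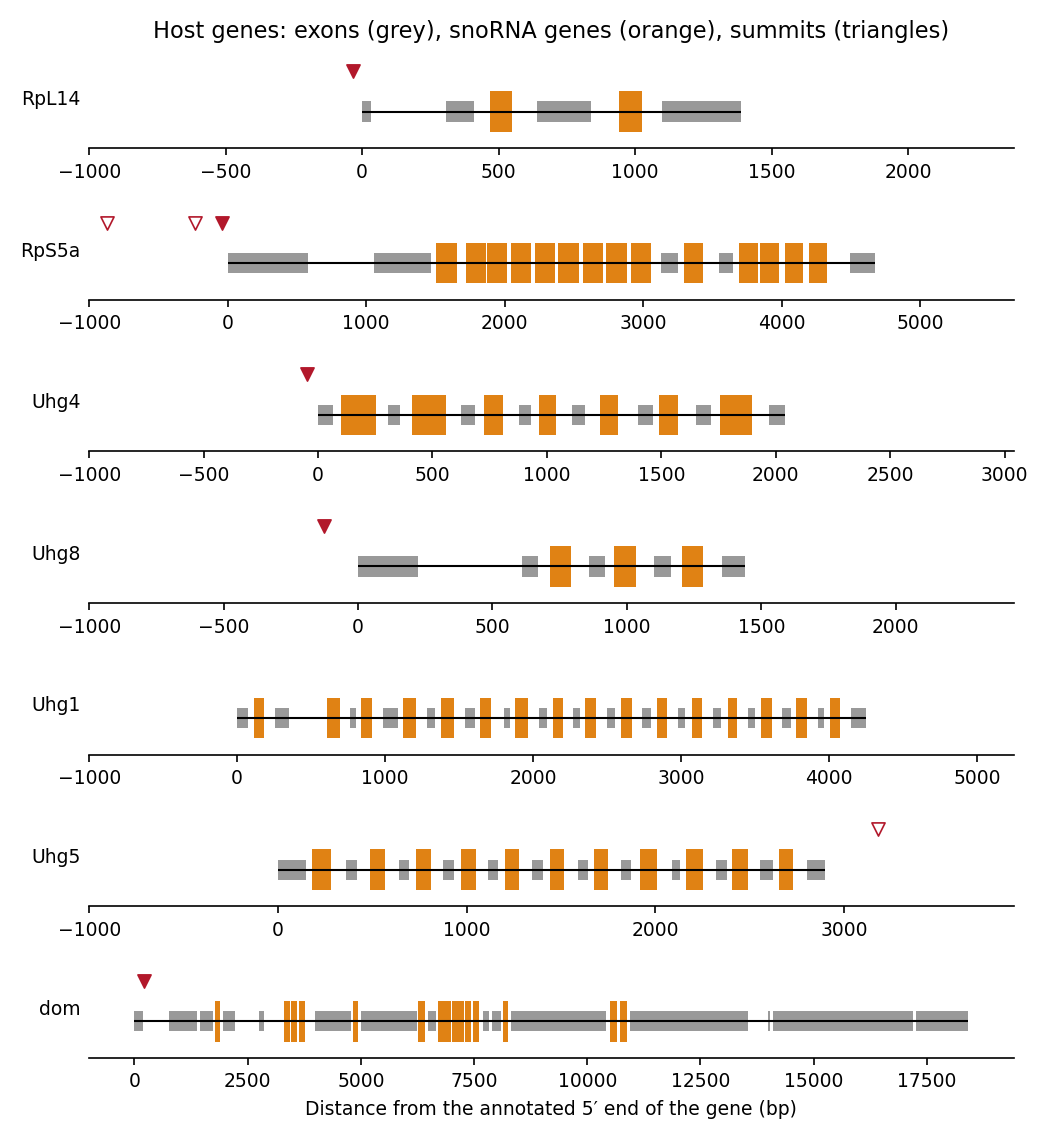
Maps of 7 host genes from the annotated 5′ end, in bp, each on its own scale, with exons in grey, snoRNA genes in orange, thresholded summits as filled triangles and regions of the pooled list only as open triangles. RpL14, RpS5a, Uhg4 and Uhg8 have a summit just upstream of the 5′ end, dom has one 222 bp inside it, and Uhg1 and Uhg5 have none at their start.

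Other hosts were bound in 17 of 47 cases (36.2%, 22.7 to 51.5%), against 14.8% of all protein-coding genes. Split by the number of TSSs, 12 of 27 other hosts with 2 or more TSSs were bound (44.4%, 25.5 to 64.7%), against 28.5% of protein-coding genes. Of those with 1 TSS, 5 of 20 were bound (95% interval 8.66 to 49.1%), against 9.82%. Each interval holds the share of protein-coding genes beside it, so neither part stood clear of that share. In the pooled list 32 of 47 had a region (68.1%), against 41.4% of protein-coding genes. None of the 3 noncoding hosts outside the Uhg class was bound. The share over all 82 hosts was 43 (52.4%, 41.1 to 63.6%).

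The strongest of these was at Stt3A, which encodes the catalytic subunit of oligosaccharyltransferase. It had a pooled signal of 1449, with 1073 in replicate 2 and 378 in replicate 3, but the summit lay 393 bp upstream of its TSS and nearer, at 216 bp, to a TSS of bves. Msp300, a nesprin of the nuclear envelope, had 608, with 434 in replicate 2 and 170 in replicate 3. Dys, the fly dystrophin, had 452, with 345 in replicate 2 and 106 in replicate 3. Both are long genes with several TSSs, 5 in Msp300 and 7 in Dys.

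Signals between 335 and 375 followed in 4 hosts. eEF1alpha1, a translation elongation factor, had 375, with 286 in replicate 2 and 112 in replicate 3, and its summit lay 38 bp upstream of the TSS as in RP genes. Irbp, a Ku subunit of DNA repair, had 353, with 248 in replicate 2 and 99.8 in replicate 3, with the summit 42 bp upstream. lola, a transcription factor, had 335, with 253 in replicate 2 and 105 in replicate 3. drn had 363, with 224 in replicate 2 and 143 in replicate 3. The strongest summit lay within 50 bp of the TSS at 3 of the 17 bound other hosts (eEF1alpha1, Irbp and Hrb98DE, an hnRNP protein gene), or 17.6%, against 15.9% of all bound protein-coding genes. lola had a second, weaker thresholded summit 13 bp from a TSS.

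The last of the 10 highest were hts, pAbp and dom. hts, which encodes adducin, had 319, with 228 in replicate 2 and 85.8 in replicate 3, at a summit only 12 bp from a TSS of its neighbour CalpA. pAbp, the poly(A)-binding protein gene, had 271, with 181 in replicate 2 and 94.9 in replicate 3, at a summit exactly 500 bp from its TSS, the limit of the window. dom, which encodes a chromatin remodelling ATPase and carries 15 snoRNA genes, had 231 and a replicate 3 value of 88.1. Hosts bound at lower signal were CG42564, Fib, tou, SC35, Dek, Hrb98DE and Rbfox1 (146 to 222). In 4 of the 17, Stt3A, hts, CG42564 and Fib, the summit was nearer to a TSS of another gene.

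Some hosts with many snoRNA genes were not bound. Arpc2, a subunit of the actin-nucleating Arp2/3 complex and the host of 17 snoRNA genes, had a pooled region of 67.7 at 5 bp from its TSS and no thresholded summit. kra, with 8 snoRNA genes, had no pooled region, and Nop60B, with 7, had one of 87.5. Just outside the thresholded list was kis, a chromatin remodeller, with 144.8 at −61 bp, while Rbfox1, with 146, was just inside. In total 15 other hosts had a pooled region only (64.5 to 144.8) and 15 had none.

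Counted by snoRNA gene, the promoter of the host was bound for 120 of the 236 genes with a host (50.8%). The share was 65 of 71 in RP hosts (91.5%), 10 of 48 in Uhg hosts (20.8%) and 45 of 117 in other hosts (38.5%). snoRNA genes of 1 host share its promoter, so these are not independent counts. By box class it was 68 of 106 hosted H/ACA genes (64.2%), 38 of 88 hosted C/D genes (43.2%) and 14 of 42 hosted genes not classed (33.3%). The classes differ in where they sit. Of the H/ACA genes 43 were in RP hosts, 2 in Uhg hosts and 61 in other hosts, and of the C/D genes 25 were in RP hosts, 33 in Uhg hosts and 30 in other hosts. Of the genes not classed, 3 were in RP hosts, 13 in Uhg hosts and 26 in other hosts. Of all 48 not classed, 15 had both a C box and a D box as searched above, and 6 had the ACA. The counts by class are therefore incomplete.

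Summits were also counted at the starts of the snoRNA genes themselves. A thresholded summit lay within 500 bp of the start of 20 of 257 snoRNA genes (7.78%, 4.82 to 11.8%), against 11% of the 5′ ends of all genes and 6.74% of those of other noncoding genes. The interval holds both of these shares. The summits belonged to 17 distinct peaks. In the pooled list 43 of 257 starts had a region within 500 bp (16.7%), against 35.7% of the 5′ ends of all genes. The pooled share of other noncoding genes was not counted. Inside a snoRNA gene lay 1 thresholded summit and 6 pooled summits, 0.02% of each list, and the snoRNA genes, 30821 bp in sum, make up 0.0224% of the chromosome arms.

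Hosted genes accounted for 12 of the 20 (5.08% of 236), and in 10 of the 12 the summit was that of the host promoter. In each of the 10 the summit lay upstream of the snoRNA start, by 107 to 499 bp. That side and limit largely follow from the window, since hosted snoRNA genes start downstream of a host TSS. The members were snoRNA:Psi28S-1232 in RpL17, snoRNA:Or-aca2 in RpS6, snoRNA:Psi28S-2648 in RpL36A, snoRNA:Psi28S-2949 and snoRNA:Or-aca5 in Uhg4, snoRNA:Or-CD11a in RpL28, snoRNA:U49:66Da in RpL14, snoRNA:Psi18S-1275 in RpS29, and the genes printed above in RpL10Ab and RpS12. The summit was 171 bp upstream of snoRNA:Psi18S-920 and 249 bp upstream of snoRNA:Me28S-A774b.

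Most of these genes lay close to the host TSS. Hosted snoRNA genes within 500 bp downstream of a host TSS had a summit near their start in 9 of 33 cases (27.3%), and those farther away in 3 of 203 (1.48%). Farther away but in a bound host it was 2 of 102 (1.96%). The window sets much of this contrast, because a summit at the host TSS is within 500 bp only of starts close to that TSS. The median distance from the nearest upstream host TSS to the snoRNA start was 874 bp in RP hosts, 1050 bp in Uhg hosts and 2427 bp in other hosts.

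**Figure D5:**
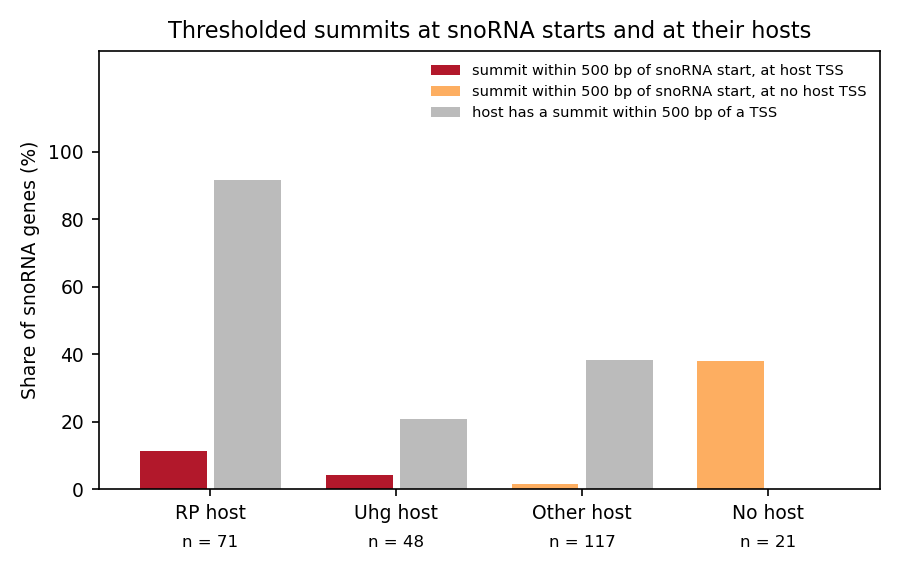
Share of snoRNA genes, in %, with a thresholded summit within 500 bp of their start, divided into summits at a host TSS (red) and at no host TSS (orange), and share whose host is bound (grey), by host class with the number of snoRNA genes. RP hosts are bound for 91.5% of their snoRNA genes, while 11.3% of those genes have a summit near the start.

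A summit near the start and near no host TSS was found at 10 snoRNA genes (3.89%, 1.88 to 7.04%). Of these, 8 had no host, out of 21 such genes (38.1%, 18.1 to 61.6%). The share was 11% for the 5′ ends of all genes and 6.74% for those of other noncoding genes. The 8 genes lay at 6 distinct peaks, so they are not independent counts and the interval is too narrow. The difference was not tested. The strongest was near snoRNA:Or-ACA6, at 534, with replicate 2 at 376 and replicate 3 at 154, 405 bp upstream of the start and within the span of the opposite-strand gene egr, which encodes a tumour necrosis factor ligand. The next was at snoRNA:Psi18S-176, with 394, 242 in replicate 2 and 154 in replicate 3. Its summit lay 13 bp inside the gene and was the only thresholded summit within any snoRNA gene.

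The other peaks near snoRNA genes without a host were weak. snoRNA:185 had a signal of 180, with a tRNA gene, tRNA:Glu-TTC-1-5, nearer to the summit. snoRNA:Psi28S-2622 had 159, with sncRNA:CR43701 nearer. snoRNA:Psi28S-1153 and 2 adjacent snoRNA genes named by their position share 1 peak of 157, and snoRNA:Psi28S-3342 had 152. Of the 8 snoRNA genes, 2, snoRNA:Or-ACA6 and snoRNA:Psi18S-176, had a peak among the 5012 strongest of both replicates. In the pooled list 15 of 21 snoRNA genes without a host had a region within 500 bp of the start (71.4%), against 35.7% of the 5′ ends of all genes, and some of these genes share a peak.

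The remaining 2 of the 10 had a host. The peak near snoRNA:hts-a, an intronic gene of hts, had a signal of 232, with 151 in replicate 2 and 81.0 in replicate 3, and lay 70 bp from tRNA:Ser-CGA-1-4. The peak near snoRNA:Or-ACA9, in an unbound host, AdamTS-A (a secreted metalloprotease), had 181, with 114 in replicate 2 and 66.7 in replicate 3. Both were among the 5012 strongest regions of both replicates. The summits lay 178 and 300 bp upstream of these starts.

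Genes for the proteins of snoRNA-protein particles were bound in 4 of 11 cases (36.4%, 10.9 to 69.2%), against 14.8% of protein-coding genes, and 8 of 11 had a pooled region, against 41.4%. NHP2, a core protein of H/ACA particles, had a signal of 388, with 292 in replicate 2 and 98.2 in replicate 3. pont, an AAA+ ATPase of the assembly machinery, had 372, with 288 in replicate 2 and 106 in replicate 3, at a summit nearer to Sirt6. Nopp140, a nucleolar chaperone, had 228, with 154 in replicate 2 and 71.8 in replicate 3. Fib, the fibrillarin methyltransferase and itself a host, had 198, with 132 in replicate 2 and 67.2 in replicate 3, at a summit nearer to CG3085.

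The C/D core genes Nop56 (118), nop5 (99.4) and hoip (79.5) and the pseudouridine synthase gene Nop60B (87.5) had a pooled region only. Gar1, Nop10 and rept had none. Members with a summit occurred in the C/D core, the H/ACA core and the assembly group. In the C/D core this was Fib alone, whose summit was nearer to another gene, as was that of pont. The summit was nearest to the gene's own TSS at NHP2 and Nopp140. The interval over the list, 10.9 to 69.2%, holds the 14.8% of all protein-coding genes.

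Short sequences were counted at the promoters of each host class, with no test between classes. TCTTT on the sense strand within 10 bases of a TSS was present at 16 of 28 RP hosts (57.1%), 2 of 7 Uhg hosts and 3 of 47 other hosts (6.38%), against 37 of 65 RP genes that are not hosts (56.9%) and 3.39% of all protein-coding genes. With only the 5′ end of each gene searched, it was at 9 of 28 RP hosts (32.1%), against 21 of 65 RP genes that are not hosts (32.3%) and 2.26% of all protein-coding genes. The Uhg hosts with a match were Uhg1 and Uhg5, neither of which was bound. Among RP hosts, TCTTT was present at the unbound RpL5, RpL15 and RpS9 and absent at some bound ones, such as RpS12 and sta. GAGAG on either strand within 150 bases of a TSS was present at 8 of 28 RP hosts (28.6%), 0 of 7 Uhg hosts and 29 of 47 other hosts (61.7%). It was at 17 of 65 RP genes that are not hosts (26.2%) and at 37.1% of all protein-coding genes. Among the other hosts it was present at 13 of 17 bound ones (76.5%) and 16 of 30 unbound ones (53.3%). A higher share at bound genes was general, since GAGAG was at 52.1% of all bound protein-coding genes. With only the 5′ end searched, it was at 8 of 17 bound and 12 of 30 unbound other hosts. The shares at the 5′ end were 36.4% of all bound protein-coding genes and 30.7% of all protein-coding genes.

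TATCGATA, which reads the same on both strands, was within 150 bases of a TSS at 8 of 28 RP hosts (28.6%), 0 of 7 Uhg hosts and 10 of 47 other hosts (21.3%). The motif was at 19 of 65 RP genes that are not hosts (29.2%) and at 9.17% of all protein-coding genes. The share at RP hosts was thus near that of the RP genes that are not hosts. One copy lies in the RpL28 window printed above. CAGCTG, also the same on both strands, was at 3 of 28 RP hosts, 0 of 7 Uhg hosts and 11 of 47 other hosts (23.4%). It was at 8 of 65 RP genes that are not hosts (12.3%) and at 22.5% of all protein-coding genes. At the 5′ end alone it was at 4 of 47 other hosts (8.51%), against 18.1% of all protein-coding genes. These counts describe letters only, and no motif is assigned to CG6813 from them.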

How the data were processed

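The authors deposited region lists for replicate 2, replicate 3 and both replicates pooled (30000 regions each) and a thresholded list, on dm6, with 1 signal value per region, per the deposited file listing. These are the authors' signal values, of unstated normalization. Aligner, peak caller and cutoff were not stated in the labels or files used here. Lists on dm3 were not used. Summits (region start plus offset, 1-based) were compared with TSSs of all BDGP6.54 transcripts, transposable elements left out, within 500 bp, and lists were matched within 200 bp, with Python 3.11.15, pandas 2.3.3, numpy 2.4.6, SciPy 1.17.1 and matplotlib 3.10.9. The strongest summit in the window represents a gene. Counting was checked on made-up data. Named were every Uhg host, RP host and snoRNA particle gene, the 10 other hosts of highest signal, and snoRNA genes with a summit near the start but no host TSS; some single items are not reported here. Alternatives changed the window, list, replicates, host rule and TSSs. Members and lists were chosen with earlier results of these data known.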

Additional observations from a re-analysis of the deposited data

How the results depend on the processing

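No paired analysis was possible because there is 1 group. The share of bound RP hosts was 100% with all pooled regions, and otherwise 78.6 to 86.2%. Without 1 replicate, it was 85.7%, that of Uhg hosts 28.6 to 42.9%, of other hosts 27.7 to 40.4%, of all hosts 47.6 to 56.1%, of snoRNA starts with a summit 5.84 to 9.34%, and of starts with a summit at no host TSS 2.33 to 4.28%, the lowest without replicate 3. The median signal at bound hosts, 409.5 in the pooled list, was 110.6 without replicate 2 and 286.5 without replicate 3. With all pooled regions the shares were 68.1% of other hosts, 75.6% of all hosts, 16.7% of snoRNA starts and 10.9% of starts at no host TSS, and the median was 230.6. Among the 2506 strongest thresholded peaks they were 21.3% of other hosts, 40.2% of all hosts, 4.67% of snoRNA starts and 1.17% of starts at no host TSS. The starts of snoRNA genes had a summit in 3.11% of cases within 200 bp and 20.6% within 1000 bp, and with peaks strong in both replicates 1.56% of starts had one at no host TSS. Of 67 values under an alternative, 53 stayed within the interval of the main value. The requirement that the host's own TSS be nearest, added after seeing the data, gave 78.6% of RP hosts and 27.7% of other hosts. Read depth is unknown and no control signal was used here, so an unbound promoter means only that no region passed the list's minimum.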

Other observations

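Where a snoRNA gene has more than 1 same-strand holder, the choice of host matters for single genes. This was so for 12 snoRNA genes. When every holder counted as a host, 86.2% of RP hosts were bound, RpL23A among them, and the share of other hosts was 36.7%. lncRNA:CR45184, which lies in Sf3b3, and lncRNA:CR42491, which lies in RpL22, had no pooled region within 500 bp of their own TSSs, although RpL22 had a signal of 787 at its TSS.

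The 3 genes of U3, the snoRNA that guides cleavage of the ribosomal RNA precursor and not its modification, had no host and no thresholded summit within 500 bp of the start. In the pooled list, snoRNA:U3:9B had a region of 56.9 and snoRNA:U3:54Ab one of 75.8, while snoRNA:U3:54Aa had none.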
